A study of Rattus norvegicus with 37 samples.

Results

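Per1 (ENSRNOG00000007387), Per2 (ENSRNOG00000020254), Per3 (ENSRNOG00000018413) and Dbp (ENSRNOG00000021027) were followed in the liver of every rat sequenced after spinal cord injury (SCI). These 4 genes, of 24613 in the table of raw counts, were chosen by their identifiers, with their levels and fold changes in these same rats already known. Levels, fold changes and correlations between the genes are therefore given as a description, and the p-values beside them do not test the choice. The names of the 4 identifiers were part of that choice. The files do not pair identifiers with names.

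The Period proteins are the slow-building repressors of the circadian clock. The activators CLOCK and BMAL1 bind E-boxes in the Per genes, and PER proteins, in complex with cryptochromes, then shut that activation off, so that Per transcripts cycle over the day. DBP is a transcription factor of the clock's output. Its gene is itself driven through E-boxes, and the protein binds D-boxes in target genes, Per genes among them. In rodent liver these transcripts are known for large daily swings, Dbp above all, and Per1 and Per2 also respond acutely to hormones such as glucocorticoids and to feeding.

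The 37 livers were from female rats of the outbred Sprague-Dawley strain, about 8 to 9 weeks old at the start by a weight-based estimate in the labels. In the SCI + In-Cage Activity set there were 5 uninjured rats in standard cages (No SCI + Standard), 5 rats with a contusion in tiny cages (CONT SCI + Tiny) and 5 with a contusion in large cages (CONT SCI + Large). In the SCI + Exercise set all rats lived in tiny cages. They were uninjured (No SCI, n = 4), contused (CONT SCI, n = 4), completely transected (TX SCI, n = 4), or contused and then exercised by swimming (CONT SCI + SWIM, n = 5) or by shallow water walking (CONT SCI + SWW, n = 5). Every injury was at the second thoracic level. The labels put collection 8.5 weeks after injury for TX SCI and 11.5 weeks for the other injured groups, while the study's methods place it later for the exercised rats. By the study's methods, all uninjured rats were taken at the equivalent of 11.5 weeks. All rats were kept under a light and dark cycle and shared a cage with another rat. The hour of the day at which each liver was taken is not given in the sources used here.

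Between 20066978 and 25130252 reads per rat were counted on genes in the SCI + In-Cage Activity set, and between 26190364 and 36761953 in the SCI + Exercise set. Set, depth and collection cannot be told apart across the sets, and injury and cage size cannot be told apart where No SCI + Standard is the control. The liver label could not be set against marker genes, because the tables at hand name none of the identifiers. For the same reason other clock genes were not analysed here.

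Exact matches to a few short elements were sought in 250 bases of promoter sequence at each gene. Elements elsewhere in these genes, or spelled with other letters, would be missed. Of the 4 windows of 250 bases before the start site given by RefSeq (GRCr8), the one of Per2 (chr9:99496994-99497243, minus strand) held a D-box, TTATGTAA, with its first base 192 bases before the start, and an E-box variant, CACGTT, 62 bases before it. Both are in capitals below. The Dbp window (chr1:105312006-105312255, plus strand), shown for comparison because Dbp had the widest range of levels, held no match.
Per2: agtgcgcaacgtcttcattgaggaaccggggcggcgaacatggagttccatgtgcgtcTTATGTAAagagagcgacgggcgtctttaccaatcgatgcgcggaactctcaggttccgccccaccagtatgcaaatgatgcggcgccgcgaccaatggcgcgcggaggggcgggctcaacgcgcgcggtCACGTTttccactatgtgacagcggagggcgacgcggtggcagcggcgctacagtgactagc
Dbp: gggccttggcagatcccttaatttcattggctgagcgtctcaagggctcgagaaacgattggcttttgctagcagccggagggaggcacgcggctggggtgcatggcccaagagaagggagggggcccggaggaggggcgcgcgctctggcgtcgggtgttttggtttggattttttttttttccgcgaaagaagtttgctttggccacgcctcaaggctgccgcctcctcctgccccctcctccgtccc
The letters searched on both strands were CACGTG (in 5.59% of 33469 promoters over the same 250 bases), CACGTT (4.07%), TTATGTAA (0.828%), TTACGTAA (0.108%) and TGACGTCA, the cyclic AMP response element (1.59%). None overlapped another in the Per2 window. Neither the Per3 nor the Per1 window held a match. Both lay inside the span of their own gene, 5374 bases past the gene's first base in Per1 and 443 in Per3, so they need not be the start used in liver and are not printed. The Per2 start site lay 76 bases inside its gene, so it too need not be the start used in liver. The CACGTT, 62 bases before that start, thus lay inside the annotated gene. A match is a run of letters and not a measured site.

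Levels are given as CPM, read counts scaled to the size of each library, after TMM normalization of all 37 libraries together. CPM is not divided by gene length, so levels are compared between rats and not between genes. Dbp ranged most widely, from 1.01 CPM (19 counts) to 108.5 CPM (4233 counts). Per3 ran from 1.05 to 38.9 CPM, Per1 from 1.75 to 48.1 CPM and Per2 from 4.06 to 35.8 CPM. In bulk tissue, fewer cells that express a gene and less RNA per cell cannot be told apart.

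**Figure D1:**
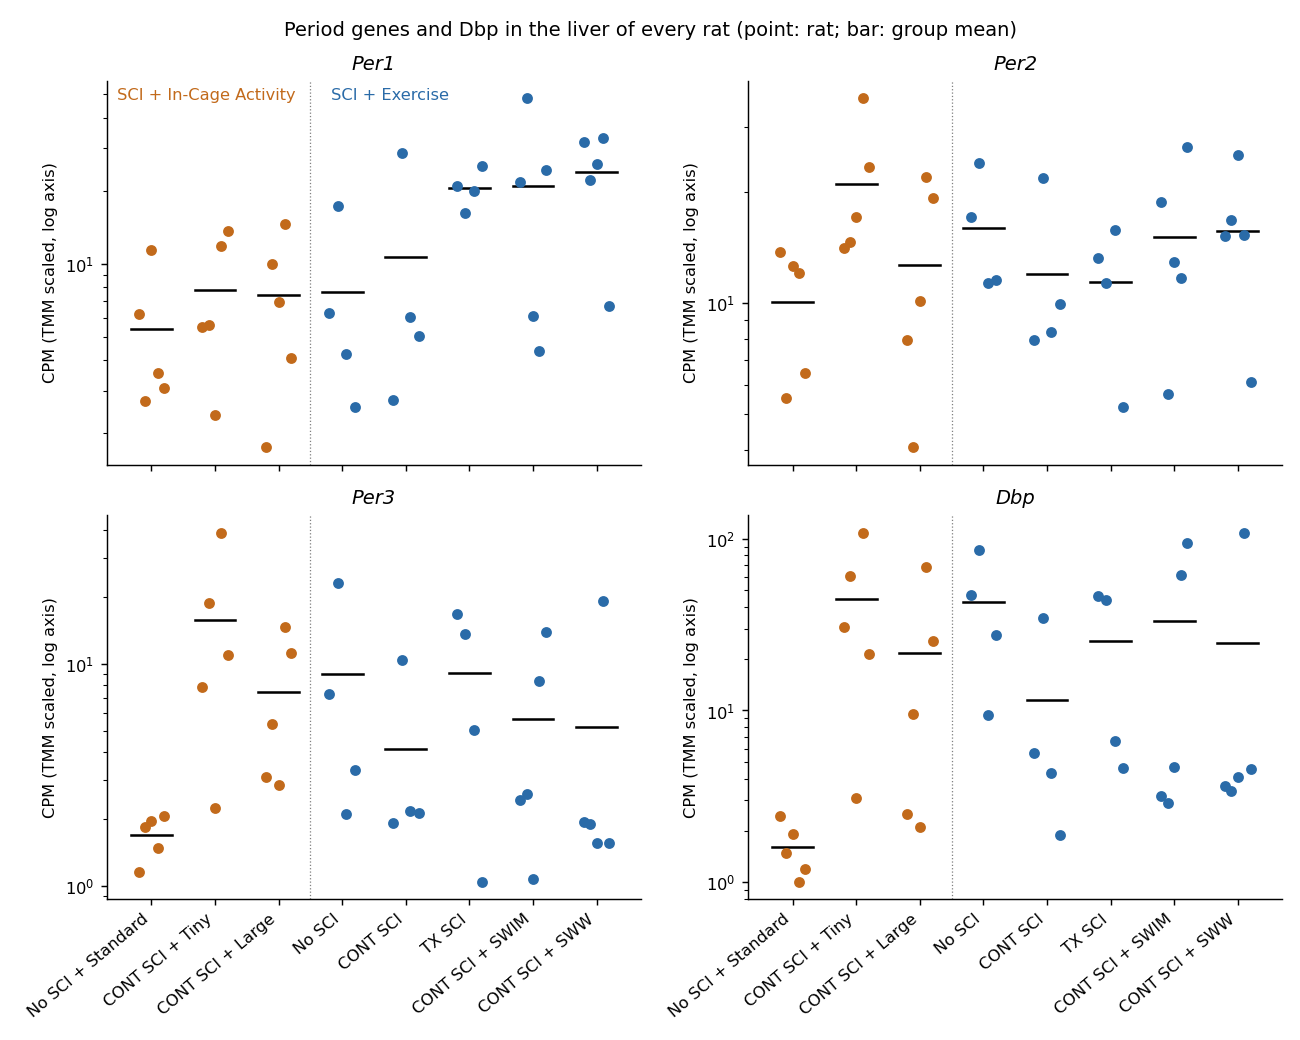
Level of each gene in each of the 37 rats, in TMM-scaled CPM on a log axis, by group. Each point is 1 rat and each bar the group mean, with the SCI + In-Cage Activity groups in orange and the SCI + Exercise groups in blue. The 5 No SCI + Standard rats lie together at the bottom for Dbp, from 1.01 to 2.43 CPM.

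Dbp was uniformly low in No SCI + Standard. Its 5 rats had 2.43, 1.47, 1.92, 1.01 and 1.19 CPM (1.60 ± 0.575, mean ± SD). CONT SCI + Tiny rats had 30.8, 60.8, 3.08, 108.2 and 21.2 CPM, so that even the lowest lay above every No SCI + Standard rat. CONT SCI + Large rats had 2.49, 9.50, 2.10, 68.5 and 25.3 CPM, with 1 of them inside the No SCI + Standard range. How many of all genes separate groups without overlap was not counted, here or for the genes below.

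In the SCI + Exercise set the uninjured rats were not low in Dbp. No SCI rats had 47.1, 86.4, 9.44 and 27.4 CPM. The CONT SCI rats had 5.63, 34.5, 4.31 and 1.88 CPM, and 3 of those 4 lay below every No SCI rat. TX SCI rats split into a pair at 46.5 and 44.2 CPM and a pair at 6.64 and 4.62 CPM. Both exercised groups split further. CONT SCI + SWIM rats had 3.17, 2.89, 4.67, 61.2 and 94.4 CPM, and CONT SCI + SWW rats had 3.62, 3.38, 4.08, 108.5 and 4.59 CPM. A group mean for Dbp was thus carried by 1 or 2 rats in several groups. In CONT SCI + SWW it was 24.8 ± 46.8 CPM with a median of 4.08.

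By mean level of Dbp the groups were ordered CONT SCI + Tiny (44.8), No SCI (42.6), CONT SCI + SWIM (33.3), TX SCI (25.5), CONT SCI + SWW (24.8), CONT SCI + Large (21.6), CONT SCI (11.6) and No SCI + Standard (1.60 CPM). Every step between neighbours in this order was smaller than the larger SD of the 2 groups. The same held for the neighbours in the orders of Per1, Per2 and Per3.

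Per3, the Period gene with the least known role in keeping the clock itself running, followed much the same rats. No SCI + Standard rats had 1.16, 1.86, 1.96, 1.49 and 2.08 CPM. CONT SCI + Tiny rats had 7.91, 18.8, 2.25, 38.9 and 10.9 CPM, and CONT SCI + Large rats had 3.09, 5.35, 2.85, 14.7 and 11.3 CPM. No rat of either contused group overlapped with the No SCI + Standard range. The share of all genes that separated so was not counted. In the edgeR tests below, 34.3% (tiny cages) and 29.4% (large cages) of genes had an unadjusted p under 0.05 against No SCI + Standard. In the SCI + Exercise set, No SCI rats had 7.30, 23.1, 2.12 and 3.35 CPM, and CONT SCI rats had 1.92, 10.4, 2.19 and 2.13 CPM. TX SCI rats had 16.8, 13.6, 5.07 and 1.05 CPM. Values in CONT SCI + SWIM were 2.44, 2.59, 1.08, 8.42 and 13.9 CPM, and in CONT SCI + SWW 1.94, 1.91, 1.57, 19.1 and 1.56 CPM. In the 7 groups other than No SCI + Standard, the rat with the highest Dbp also had the highest Per3.

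Per2, a core repressor whose loss disturbs daily rhythms, varied less. No SCI + Standard rats had 13.7, 5.52, 12.6, 12.1 and 6.44 CPM. CONT SCI + Tiny rats had 14.1, 14.6, 17.1, 35.8 and 23.4 CPM, which began just above the highest uninjured rat. CONT SCI + Large rats had 7.93, 4.06, 10.1, 21.9 and 19.2 CPM and overlapped with both. In the SCI + Exercise set the 5 group means lay between 11.4 ± 4.50 CPM (TX SCI) and 16.0 ± 5.94 CPM (No SCI), with all groups overlapping. No SCI rats had 17.1, 23.9, 11.3 and 11.5 CPM, CONT SCI rats 7.94, 21.8, 8.34 and 9.90 CPM, and TX SCI rats 13.2, 11.3, 15.8 and 5.22 CPM. In exercised rats Per2 was 18.7, 5.67, 12.9, 11.7 and 26.4 CPM after swimming and 15.1, 16.7, 25.2, 15.3 and 6.09 CPM after shallow water walking, so that the lowest and the highest of these 5 groups were a TX SCI and a CONT SCI + SWIM rat.

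Per1, the Period gene best known for acute induction, had another order. Its means were lowest in No SCI + Standard (5.39 ± 3.61 CPM) and highest in CONT SCI + SWW (24 ± 10.6 CPM). TX SCI was the most even group, with 20.9, 16.2, 20.0 and 25.4 CPM against 6.30, 17.4, 4.27 and 2.56 CPM in No SCI and 2.76, 28.8, 6.04 and 5.04 CPM in CONT SCI. A TX SCI rat was higher than a No SCI rat in 15 of 16 pairs. CONT SCI + SWW rats had 32, 22.3, 25.9, 33 and 6.73 CPM, and CONT SCI + SWIM rats had 21.7, 48.1, 6.12, 4.39 and 24.3 CPM. In the other set, No SCI + Standard rats had 6.24, 2.71, 11.4, 3.56 and 3.07 CPM, CONT SCI + Tiny rats 5.52, 5.58, 2.38, 11.8 and 13.7 CPM, and CONT SCI + Large rats 1.75, 10, 6.96, 14.6 and 4.08 CPM. These 3 groups overlapped throughout.

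Fold changes were taken from edgeR's quasi-likelihood test fitted to all genes of each pair of groups, with Benjamini-Hochberg adjustment, and an adjusted p under 0.05 counted as a call. All 4 genes passed the filter on low counts in every comparison. In CONT SCI + Tiny against No SCI + Standard, 3 of the 4 were called, all higher, where 12.5% of 11859 genes were called (644 higher and 835 lower). The log2 fold change of Dbp was 4.80 ± 0.86 (SE, edgeR adjusted p = 0.0243), that of Per3 was 3.19 ± 0.67 (adjusted p = 0.0283) and that of Per2 was 1.06 ± 0.31 (adjusted p = 0.0456). By size of fold change Dbp ranked 1 and Per3 ranked 2 among the 11859 genes. Per1 differed by 0.52 ± 0.51 (edgeR adjusted p = 0.498).

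These calls lay close to the threshold. With 1 rat left out, Dbp stayed called in 7 of 10 fits, Per3 in 6 and Per2 in 2, although the direction of all 3 held. None of the 4 was called without CONT SCI + Tiny replicate 1, without No SCI + Standard replicate 4 or without No SCI + Standard replicate 5, where edgeR's adjusted p for Dbp was 0.0536, 0.0600 and 0.0644. Those fits called 85 of 11959, 15 of 11971 and 125 of 11969 genes in all, against 1479 of 11859 with every rat kept. The log2 fold change of Dbp in them was 4.91, 4.68 and 4.71. Without CONT SCI + Tiny replicate 5, where 199 of 11967 genes were called, only Dbp of the 4 was (adjusted p = 0.0460). Per3 had an adjusted p of 0.0519 there. Without CONT SCI + Tiny replicate 3 or replicate 4, or without No SCI + Standard replicate 2 or replicate 3, the call lost was that of Per2 (adjusted p 0.0879, 0.0607, 0.0735 and 0.0554). Over all genes these fits called 72, 1794, 692 and 1148. Per2 also lost its call in edgeR with all groups in one fit (adjusted p = 0.0986) and without the filter on low counts (0.0798). Those fits called 899 of 12119 and 1362 of 17181 genes.

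In CONT SCI + Large against No SCI + Standard, 0 of the 4 were called, where 0.0337% of 11852 genes were (4 genes, 3480 at an unadjusted p under 0.05). The fold changes of Dbp and Per3 pointed the same way as in tiny cages, at 3.76 ± 0.93 and 2.12 ± 0.45 on the log2 scale, with edgeR adjusted p-values of 0.0716 and 0.0635. Dbp again ranked 1 by size among all genes tested. Both genes were called without CONT SCI + Large replicate 1 (adjusted p = 0.0290 for Dbp and 0.0259 for Per3) and without No SCI + Standard replicate 1 (0.0471 and 0.0370). Those fits called 2020 of 11960 and 1209 of 11980 genes in all, against 4 of 11852 with every rat kept. Per2 differed by 0.34 ± 0.42 and Per1 by 0.47 ± 0.54. These comparisons share the No SCI + Standard rats.

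Cage size among contused rats gave no call. In CONT SCI + Large against CONT SCI + Tiny edgeR called 0% of 11920 genes, with 346 at an unadjusted p under 0.05, and DESeq2 called none of the 4 either. The log2 fold changes were -1.04 ± 1.05 for Dbp, -1.07 ± 0.72 for Per3, -0.72 ± 0.43 for Per2 and -0.05 ± 0.57 for Per1. With 1 rat left out, Dbp ranged from -2.19 to -0.41 and Per3 from -1.48 to -0.42.

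**Figure D2:**
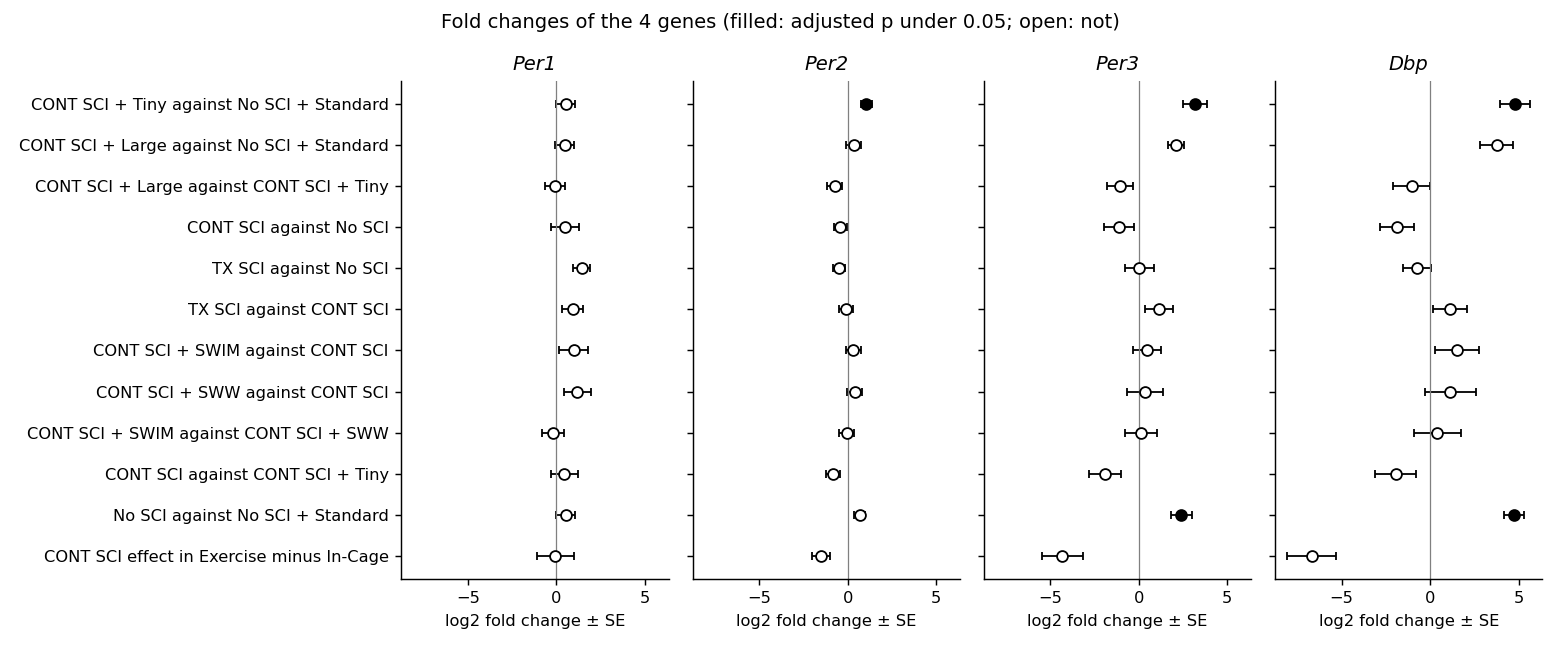
Log2 fold change with its SE (edgeR) for each gene in the 11 comparisons of 2 groups and in the difference between sets. Filled points have an adjusted p under 0.05 and open points do not. Filled points stand only in the rows that set CONT SCI + Tiny and No SCI each against No SCI + Standard.

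Among the sedentary rats of the SCI + Exercise set, contusion against no injury gave fold changes of the opposite sign for 3 of the genes. In CONT SCI against No SCI the log2 values were -1.88 ± 0.96 for Dbp, -1.12 ± 0.83 for Per3, -0.42 ± 0.36 for Per2 and 0.47 ± 0.80 for Per1. Here 0 of the 4 were called and 0.00801% of 12482 genes were (1 gene, 561 at an unadjusted p under 0.05). The adjusted p was 0.998 for each of the 4 in edgeR. CONT SCI replicate 2 stood above its group in every gene, at 34.5 CPM in Dbp and 28.8 CPM in Per1. Without this rat the log2 fold changes were -3.46 for Dbp, -2.14 for Per3, -0.89 for Per2 and -0.75 for Per1. Leaving out No SCI replicate 2, the highest uninjured rat of this set in all 4 genes, moved them the other way, to -1.27, -0.030, -0.15 and 1.29. The 4 genes stayed without a call in both fits.

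Complete transection gave no call among the 4 against either control. In TX SCI against No SCI, where 0.0638% of 12530 genes were called, Per1 had the largest difference at 1.43 ± 0.48 on the log2 scale (edgeR adjusted p = 0.284). It was called only without No SCI replicate 2, at 2.24 (adjusted p = 0.0299), where 23 of 12659 genes were called. Dbp differed by -0.74 ± 0.78, Per2 by -0.49 ± 0.34 and Per3 by 0.02 ± 0.82. In TX SCI against CONT SCI, where 0.0321% of 12468 genes were called, the log2 values were 1.13 ± 0.94 for Dbp, 1.13 ± 0.78 for Per3, 0.93 ± 0.60 for Per1 and -0.08 ± 0.39 for Per2. Without CONT SCI replicate 2 they were 2.69, 2.13, 2.15 and 0.38, with an edgeR adjusted p of 0.0614 for Per1 and of at least 0.332 for the others. The TX SCI rats were collected earlier after injury than the CONT SCI rats, and earlier than the equivalent time of the No SCI rats.

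Exercise after contusion gave no call among the 4 genes either. In CONT SCI + SWIM against CONT SCI (0.008% of 12502 genes called) the log2 values were 1.52 ± 1.27 for Dbp, 0.98 ± 0.83 for Per1, 0.45 ± 0.78 for Per3 and 0.33 ± 0.44 for Per2. Single rats moved these values widely. Without CONT SCI replicate 2 they were 3.08, 2.20, 1.46 and 0.79, without CONT SCI + SWIM replicate 5 Dbp was 0.63, Per3 -0.18 and Per2 0.024, and without CONT SCI + SWIM replicate 2 Per1 was 0.40. In CONT SCI + SWW against CONT SCI (0.759% of 12642 genes called) they were 1.13 ± 1.45 for Dbp, 1.18 ± 0.75 for Per1, 0.36 ± 1.01 for Per3 and 0.40 ± 0.42 for Per2. The values of Dbp and Per3 in shallow water walking turned on single rats. Without CONT SCI + SWW replicate 4 they were -1.56 and -1.24, and without CONT SCI replicate 2 they were 2.70 and 1.37, with Per1 at 2.41. In CONT SCI + SWIM against CONT SCI + SWW, edgeR called 0% of 12525 genes (680 at an unadjusted p under 0.05), DESeq2 called none of the 4, and the 4 differed by between -0.19 and 0.40 on the log2 scale, with SEs of 0.40 to 1.33.

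Uninjured rats of the 2 sets differed in Dbp and Per3. In No SCI against No SCI + Standard the log2 fold change was 4.75 ± 0.56 for Dbp (edgeR adjusted p = 0.000108) and 2.40 ± 0.57 for Per3 (adjusted p = 0.00448), with every No SCI rat above every No SCI + Standard rat. How many of all genes separated in this way was not counted, and 57.6% had an unadjusted p under 0.05 in edgeR. Per1 differed by 0.52 ± 0.54 and Per2 by 0.69 ± 0.30 (adjusted p = 0.0742). Per2 was called without No SCI + Standard replicate 1 (adjusted p = 0.0460), and how many of all genes that fit called is not given here. In this comparison 51.4% of 12174 genes were called, so 2 of 4 is near the background. Contused rats of tiny cages in the 2 sets, CONT SCI against CONT SCI + Tiny, gave 0 of 4 calls where 45.1% of 12199 genes were called. Their log2 values were -1.95 ± 1.17 for Dbp, -1.92 ± 0.90 for Per3, -0.81 ± 0.40 for Per2 and 0.46 ± 0.79 for Per1. Without CONT SCI replicate 2, Per2 at -1.27 (edgeR adjusted p = 0.00862) and Per3 at -2.93 (adjusted p = 0.0418) were called, where 4828 of 12295 genes were.

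The difference between the 2 contusion effects was fitted as an interaction. In the SCI + Exercise set the contusion effect was lower than in the SCI + In-Cage Activity set by a log2 value of -6.69 ± 1.39 for Dbp, -4.32 ± 1.15 for Per3 and -1.49 ± 0.52 for Per2, and by -0.06 ± 1.02 for Per1. None of the 4 was called by edgeR (adjusted p = 0.0598, 0.0800, 0.113 and 0.978), against 0.199% of 12571 genes. The value of Dbp ranked 1 and that of Per3 ranked 4 by size among all genes tested. Dbp was called without No SCI replicate 2 (-6.10, adjusted p = 0.0241), without CONT SCI replicate 2 (-8.26, adjusted p = 0.0357) and without No SCI + Standard replicate 1 (-6.87, adjusted p = 0.0307), and Per3 without No SCI replicate 2 (-3.24, adjusted p = 0.0479). How many of all genes these fits called is not given here, so their calls cannot be set against a background. The uninjured rats of the 2 sets differed in cage size, which cannot be told apart from set here.

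Rats of one group differed in these genes more than in nearly all others. On log2(CPM + 1), the SD between rats within groups was 1.71 for Dbp, 1.13 for Per3, 0.97 for Per1 and 0.67 for Per2, against a median of 0.24 over 9099 genes with a mean of at least 100 counts. Dbp ranked 3, Per3 ranked 24, Per1 ranked 50 and Per2 ranked 185 among them. Beside this spread, the hour of collection is unknown, and its part in it was not tested. With the replicate number as a block, the SE of the Per3 fold change fell from 0.83 to 0.28 in CONT SCI against No SCI. In CONT SCI + SWW against CONT SCI that SE rose from 1.01 to 1.19. Whether rats of the same number shared an hour of collection was not tested.

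**Figure D3:**
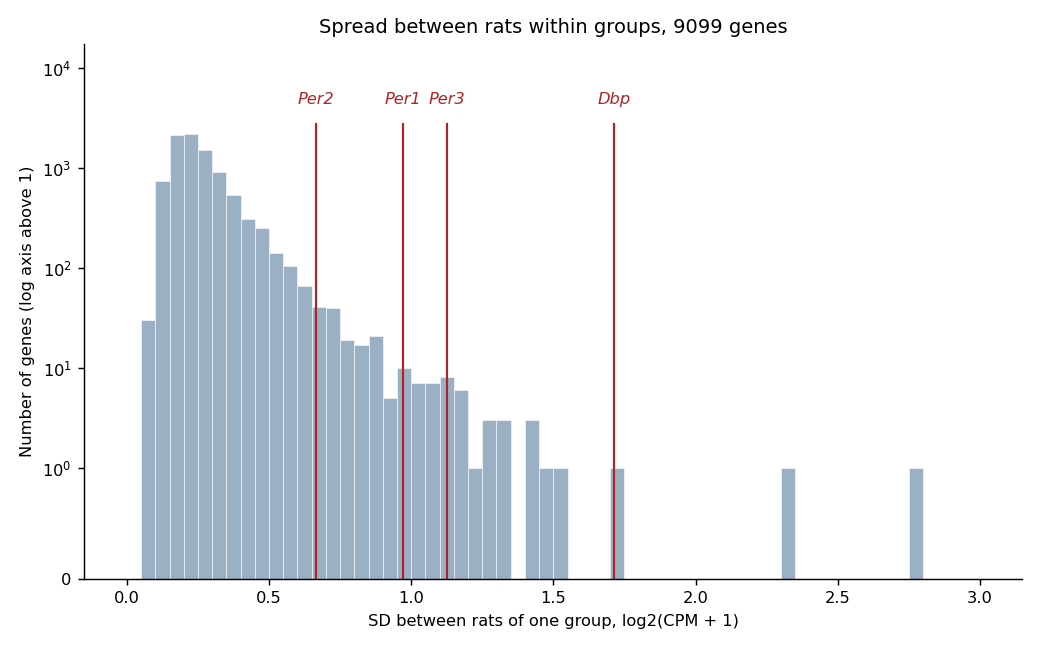
Distribution over 9099 genes of the SD between rats of one group, on log2(CPM + 1). The vertical axis counts genes and is logarithmic above 1. Red lines mark the 4 genes, from 0.67 (Per2) to 1.71 (Dbp), to the right of the median of 0.24.

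Within groups, Per3 and Dbp moved together from rat to rat. After the group mean of log2(CPM + 1) was subtracted, Pearson's r was 0.93 over the 15 rats of the SCI + In-Cage Activity set (permutation p = 0.00023, adjusted over 12 relations 0.00138) and Spearman's rho was 0.80 (permutation p = 0.00782, adjusted 0.0400). Over the 22 rats of the SCI + Exercise set r was 0.92 (permutation p = 1e-05, the smallest that the permutations can give, adjusted 0.00012) and rho was 0.76 (permutation p = 0.00032, adjusted 0.00384). Rats were permuted within groups, two-sided. The genes were chosen with their levels in these same rats known, so the permutation p-values here and below are a description. Without the 2 rats farthest from the median of Per3, r was 0.93 and 0.91 (adjusted permutation p = 0.0335 and 0.00348) and rho 0.86 and 0.91, where the first rho no longer passed the threshold (adjusted permutation p = 0.0971 and 0.00648). Cage mates share a housing pair that the labels do not give, so the rats may not be fully independent.

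The other pairs were looser. Per2 and Per3 had an r of 0.55 in the SCI + Exercise set (permutation p = 0.0211, adjusted 0.0843; rho 0.58, permutation p = 0.0100, adjusted 0.0400), and only the rho passed the threshold. Without the 2 rats farthest from the median r was 0.46 and rho 0.33 (adjusted permutation p = 0.342 and 0.380), and under RLE normalization the rho had an adjusted permutation p of 0.0604. The same pair had an r of 0.48 among the 15 rats of the other set (adjusted permutation p = 0.128). Per1 and Dbp had an r of 0.58 in the SCI + In-Cage Activity set and 0.17 in the SCI + Exercise set (adjusted permutation p = 0.128 and 0.500). Whether the 2 sets differ in this was not tested. CONT SCI + SWIM replicate 2, for example, had the highest Per1 of all rats at 48.1 CPM and a Dbp of only 2.89 CPM. The pairs of Per1 with Per2 and Per3, and of Per2 with Dbp, had r between 0.38 and 0.53, with adjusted permutation p of at least 0.128.

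**Figure D4:**
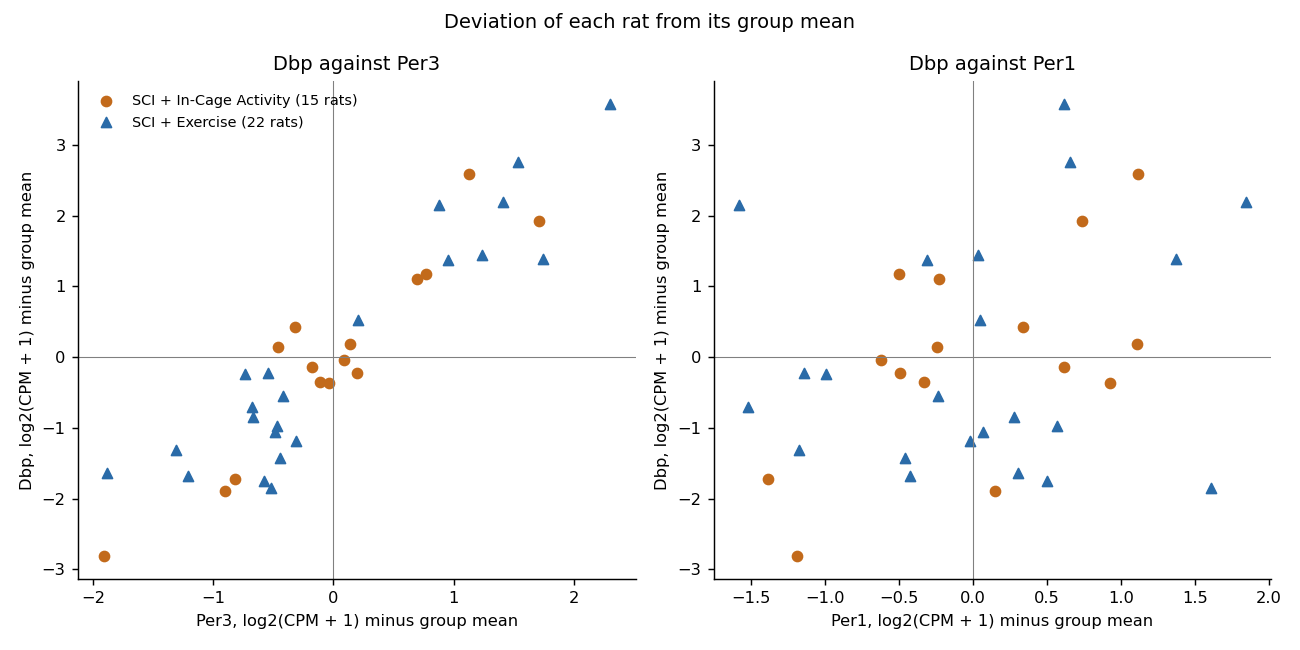
Deviation of each rat from its group mean in log2(CPM + 1), with Dbp on the vertical axis against Per3 (left) and Per1 (right). Orange circles are the 15 rats of the SCI + In-Cage Activity set and blue triangles the 22 of the SCI + Exercise set. Points follow a line for Per3 (r = 0.93 and 0.92) and scatter for Per1 (r = 0.58 and 0.17).

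The genes most like Dbp were sought among the others with a mean of at least 100 counts, by the same within-group deviations over 37 rats. The 2 highest for Dbp were ENSRNOG00000019383 (r = 0.95) and ENSRNOG00000013982 (r = 0.94). For Per3 they were ENSRNOG00000019383 (r = 0.93) and Dbp itself (r = 0.92), a near tie whose order turned when the set mean was removed in place of the group mean (0.93 and 0.94). The most opposed to both Dbp and Per3 was ENSRNOG00000014448 (r = -0.89 and -0.91), and the next for Dbp was ENSRNOG00000005464 (r = -0.88). For Per1 and Per2 the highest r was 0.83 and 0.76, and the lowest -0.71 and -0.69. Of 9098 genes, 12 had an r of at least 0.7 with Dbp and 16 an r of -0.7 or lower. The counts were 16 and 27 for Per3, 19 and 3 for Per1, and 1 and 0 for Per2. These values share libraries and normalization and are given as a description.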

How the data were processed

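Poly(A) RNA from 37 rat livers was sequenced as single-end reads. The authors aligned them to Rn6 with STAR, after a quality check with FastQC 0.10.1, used HTSeq to count those on Ensembl genes, mitochondrial ones excluded. The deposited values are raw counts, whole numbers per gene and rat. Groups and replicate numbers came from the labels. All 68 pairs of rats of one group differed by more than sampling noise (lowest reduced chi-square 31.0). Here, the test was edgeR 4.0.16 (R 4.3.3: glmQLFTest, robust, TMM, and filterByExpr with min.count 10 and min.total.count 15), each comparison on its own groups. An SE is the size of the log2 fold change divided by the square root of F. Scripts were tested on simulated data. Alternatives were DESeq2 1.42.0, RLE normalization, library totals, no filter, 1 fit for all groups, a replicate block, another pseudocount (0.1) and each rat left out. Correlations and their 100000 permutations used NumPy 2.4.6, with ranks from SciPy 1.17.1.

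The 4 genes and the gene lists were chosen with earlier results of these data known. Of 47357 RefSeq genes 0 carried an Ensembl identifier, so the 77 symbols of 15 lists of clock, liver and cell type genes were not analysed here. The genes most like a member are, by rule, the 2 highest and 2 lowest by r, and identifiers are printed for Dbp and Per3. Reads and browser tracks were not used here.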

Additional observations from a re-analysis of the deposited data

Results flagged for a closer look

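Levels of the 4 genes were checked in each of the 8 groups for a rat far from the rest, which makes 32 checks. Chance alone flags about 1 in 20 if the CPM of a group follow a normal distribution. Several groups were skewed, such as Dbp in CONT SCI + SWIM with a mean of 33.3 and a median of 4.67 CPM. Chance may therefore flag more, and the checks were not repeated on a log scale. There were 6 such values, in 2 rats. CONT SCI replicate 2 was far above the other 3 rats of its group in all 4 genes, with 28.8 CPM in Per1 (others 2.76 to 6.04), 21.8 CPM in Per2 (others 7.94 to 9.90), 10.4 CPM in Per3 (others 1.92 to 2.19) and 34.5 CPM in Dbp (others 1.88 to 5.63). CONT SCI + SWW replicate 4 was far above the other 4 rats of its group in Per3 (19.1 CPM, others 1.56 to 1.94) and in Dbp (108.5 CPM, others 3.38 to 4.59). In Per1 and Per2 this rat had 33 and 15.3 CPM, inside or next to the range of its group. All 6 values come from these 2 rats, and Per3 and Dbp correlate between rats, so the values are not independent of each other. Why these rats stand apart was not tested.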

How the results depend on the processing

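The count of the 4 genes called stayed within 1.5 times its value, or at 0, in 53 of 57 alternative fits that kept all rats. In CONT SCI + SWW against CONT SCI, DESeq2 gave no p-value for Per3 and Dbp, and both were counted there as not called. The exceptions were fits by DESeq2 and a fit of all groups together, in each case where edgeR on the groups compared called 0. In CONT SCI + Large against No SCI + Standard DESeq2 called 2, where it called 1409 of 11852 genes. In CONT SCI against CONT SCI + Tiny it called 1, where it called 5738 of 12199 genes, and in the difference between sets it called 3. The DESeq2 count over all genes in the difference between sets is not given here, so these 3 cannot be set against a background. The fit of all groups together called 1 in CONT SCI + Large against No SCI + Standard, where it called 935 of 12119 genes. In CONT SCI + Tiny against No SCI + Standard 3 calls became 2 without the filter and with all groups in one fit, the lost call being Per2 (edgeR adjusted p = 0.0798 and 0.0986). With each rat left out, the count ran from 0 to 3 in CONT SCI + Tiny and from 0 to 2 in CONT SCI + Large (both against No SCI + Standard), from 0 to 1 in TX SCI against No SCI, from 0 to 2 in CONT SCI against CONT SCI + Tiny and from 0 to 2 in the difference between sets. Over all genes, calls ran from 15 to 2998 in the first of these comparisons and from 0 to 2020 in the second.

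Among the fold changes in fits with all rats, 4 changed sign, none of them called. Per3 in TX SCI against No SCI was -0.012 without the filter. With the replicate number as a block, CONT SCI + SWIM against CONT SCI gave -0.17 for Per3 and -0.11 for Dbp, and CONT SCI + SWW against CONT SCI gave -0.035 for Dbp. Same-numbered rats correlated at -0.498 to 0.471, not every pair over 0.1 in any comparison. Whether numbers pair the rats in the 4 genes was not tested. The block left 2 calls in CONT SCI + Tiny against No SCI + Standard (Dbp edgeR adjusted p = 0.0504).

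With each rat left out, log2 fold changes that crossed 0 ranged as follows. Per1 ranged from -0.45 to 0.25 in CONT SCI + Large against CONT SCI + Tiny, from -0.75 to 1.29 in CONT SCI against No SCI, from -0.77 to 0.069 in CONT SCI + SWIM against CONT SCI + SWW, from -0.76 to 0.78 in CONT SCI against CONT SCI + Tiny, from -0.27 to 0.99 in No SCI against No SCI + Standard and from -1.29 to 0.74 in the difference between sets. Per2 ranged from -0.28 to 0.38 in TX SCI against CONT SCI and from -0.37 to 0.17 in CONT SCI + SWIM against CONT SCI + SWW. Per3 ranged from -0.46 to 1.10 in TX SCI against No SCI, from -0.18 to 1.46 in CONT SCI + SWIM against CONT SCI, from -1.24 to 1.37 in CONT SCI + SWW against CONT SCI and from -0.54 to 1.70 in CONT SCI + SWIM against CONT SCI + SWW. Dbp ranged from -1.56 to 2.70 in CONT SCI + SWW against CONT SCI and from -0.49 to 3.09 in CONT SCI + SWIM against CONT SCI + SWW. The cause of these changes was not tested.

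No group mean moved by more than its SD under another scaling, and all 36 alternative values of Pearson's r between the 4 genes kept their direction and their side of the threshold. Spearman's rho lost it without 2 rats for Per3 and Dbp in the SCI + In-Cage Activity set (adjusted permutation p = 0.0971), and for Per2 and Per3 in the SCI + Exercise set without 2 rats (0.380) and under RLE normalization (0.0604). Of 16 likeness values, 2 moved when the set mean was removed in place of the group mean, 1 for Per1 (from 0.82 to 0.65) and 1 for Per2 (from -0.65 to -0.32). The lowest count of the 4 genes in any rat was 19 (Dbp).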
